A study of Mus musculus with 6 samples.

Results

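The cAMP pathway was described through 9 of the 57126 genes counted in OT-I CD8+ T cells: the vasoactive intestinal peptide (VIP) receptors Vipr1 and Vipr2, the prostaglandin E2 receptors Ptger2 and Ptger4, the phosphodiesterases Pde3b, Pde4b, Pde4d and Pde7a, and the transcription factor gene Crem. The 9 genes were chosen by name with their measured differences between the 2 groups of this series already known, so their values are given as a description and no p-value is attached to them. The adrenergic receptor genes described below are not among the 9 and come from a wider list of 107 further genes of the pathway. That list was also drawn up with earlier results of these data known. Its p-values are given, but as a description too.

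OT-I cells carry a transgenic T cell receptor for an ovalbumin peptide presented by H-2Kb. CD8+ cells were enriched from lymph nodes and spleens of OT-I mice with magnetic columns and cultured with nano-aAPCs, iron oxide particles coated with dextran that carry Kb-OVA and anti-CD28, and their RNA was sequenced on day 6. Group TEff received IL-2 and group TRM-like received IL-2, IL-15 and TGF-β, with 3 samples in each, so the effects of IL-15 and TGF-β cannot be told apart. All 6 samples share the OT-I receptor, the particles and IL-2, and the sources used here give neither the age or sex of the mice nor whether replicates were separate animals or cultures. The p-values below therefore measure the spread between these samples, which may be technical.

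Cyclic AMP is a small intracellular messenger. Receptors coupled to the stimulatory G protein Gs, among them those for VIP, noradrenaline and prostaglandin E2, switch on adenylyl cyclases, which make cAMP from ATP, and receptors coupled to Gi switch the cyclases off. Phosphodiesterases degrade cAMP, protein kinase A and Epac respond to it, and kinase A phosphorylates CREB family factors at cAMP response elements (CREs). In T cells, a rise in cAMP is known to dampen signalling from the T cell receptor.

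The libraries held 18319013 to 23622621 counts. In TRM-like replicates 1 and 2, 962 and 1020 of 1581 olfactory, vomeronasal and taste receptor genes had a count, against 46 to 55 in the other 4 libraries, and TRM-like replicate 3 stood apart from its group in many genes below. At the mean rate per base of those genes, such counts would come to at most 5.38 in any of the 9 genes in any library. The CD8 T cell markers (Cd3d, Cd3e, Cd3g, Cd8a, Cd8b1 and Trac), in CPM, counts per 1000000 counts of a library, summed to 2012 to 2153 CPM in TEff and 2577 to 3713 CPM in TRM-like. Markers of B cells summed to at most 10.9 CPM, of myeloid cells to at most 4.94 CPM and of CD4 T cells to at most 1.34 CPM in any library. The 2 natural killer cell markers summed to 9.83 to 22.0 CPM in TEff and 0.0922 to 8.76 CPM in TRM-like, almost all of it Klrb1c, and Ncr1 had at most 6 counts. The 4 stromal or endothelial markers summed to 46.2 to 63.2 CPM in TEff and 19.4 to 41.3 CPM in TRM-like. Most of it was Pecam1, with at most 15 counts of Col1a1 and at most 3 of Col3a1 and Cdh5. These last 2 sums were lower in TRM-like, as most of the 9 genes were, through Klrb1c and Pecam1 alone. Ncr1, Col1a1, Col3a1 and Cdh5, all at few counts, had higher means in TRM-like. The part of these markers in the values below was not tested.

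The promoters of the VIP receptor genes are shown because these genes differed in opposite directions. A promoter of Pde4b is shown because Pde4b was the phosphodiesterase gene past the threshold given below. Among the promoters of Pde4b, that holding the CRE core TGACG is shown, and the others lack it. Which start the cells used was not tested. Each line gives the 250 bases before an annotated transcription start from RefSeq's GRCm38.p6 annotation, 5′ to 3′ on the strand of the gene, placed on GRCm39 by an exact match at chr9:121471532-121471781 for Vipr1, chr12:116041096-116041345 for Vipr2 and chr4:102278502-102278751 for Pde4b, all on the plus strand. Capitals mark the CRE core TGACG, here read on the other strand as CGTCA.
Vipr1: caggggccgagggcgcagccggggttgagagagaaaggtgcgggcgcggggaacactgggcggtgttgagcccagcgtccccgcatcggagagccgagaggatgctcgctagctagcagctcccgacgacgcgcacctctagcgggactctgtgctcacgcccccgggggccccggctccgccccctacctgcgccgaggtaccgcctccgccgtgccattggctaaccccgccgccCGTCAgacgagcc
Vipr2: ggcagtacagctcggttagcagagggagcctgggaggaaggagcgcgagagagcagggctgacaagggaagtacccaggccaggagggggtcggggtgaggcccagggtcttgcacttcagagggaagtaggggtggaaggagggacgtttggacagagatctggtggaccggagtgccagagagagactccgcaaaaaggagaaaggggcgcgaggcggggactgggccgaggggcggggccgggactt
Pde4b: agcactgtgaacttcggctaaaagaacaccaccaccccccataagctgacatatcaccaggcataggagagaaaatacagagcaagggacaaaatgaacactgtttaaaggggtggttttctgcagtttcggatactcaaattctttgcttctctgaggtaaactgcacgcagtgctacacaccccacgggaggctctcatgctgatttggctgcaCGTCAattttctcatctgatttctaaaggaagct
The core lies in the Vipr1 promoter with its first base 13 bases before the start and in this Pde4b promoter 34 bases before the start, and its letters are not in the Vipr2 window.

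RefSeq promoters were read for 6 of the 9 genes, 9 promoters in all, 4 of them for Pde4b. Chromosome 18 was not read, so Crem was left out of the search. Those 2 of the 9 promoters held TGACG, a core that stood in 20.8% of all 32851 promoters of the same table, both strands searched over 300 bases. The full CRE TGACGTCA, which contains the core, was in 1.79% of all promoters and in 0 of the 9, and the SMAD palindrome GTCTAGAC was in 0.213% of all and in 0 of the 9. The STAT motif TTCNNNGAA was in 8.30% of all promoters and in 1 of the 9, another promoter of Pde4b. G and C made up 72.8% of the Vipr1 window, 65.2% of the Vipr2 window and 46.0% of the Pde4b window shown, against a median of 52.4% over all promoters. A match in these letters is a description, not a binding site.

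Between the groups, the mean of Vipr2 was higher in TRM-like and those of the other 8 genes were lower, with Pde7a and Crem close to level. Of the 9 genes, 3 passed the threshold used here in edgeR's quasi-likelihood test over 26154 genes. That threshold was an adjusted p below 0.05 with an absolute log2 fold change above 0.58. The 3 were Vipr2 in the upward direction, and Vipr1 and Pde4b in the downward direction. Over all genes tested, 3.01% passed that threshold, 1.52% as higher and 1.48% as lower in TRM-like. The study set the same cut-offs in DESeq2 rather than edgeR. Under DESeq2, 6 of the 9 passed here, adding Ptger2, Ptger4 and Pde4d, and so did 1256 of all genes, against 786 in edgeR. The samples of the 2 groups did not overlap in 7 of the 9 genes, above TEff in Vipr2 and below it in 6, where 20.3% of all genes did not overlap, and the samples overlapped in Pde7a and Crem. The median log2 fold change of the 9 genes was -0.73 and that of all genes tested was 0.02. Because the genes were selected on this contrast, nothing is read from these counts. All 9 passed the filter on low counts, and none had fewer than 10 counts in any sample. In bulk RNA, fewer cells with a transcript and less of it per cell cannot be told apart.

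**Figure D1:**
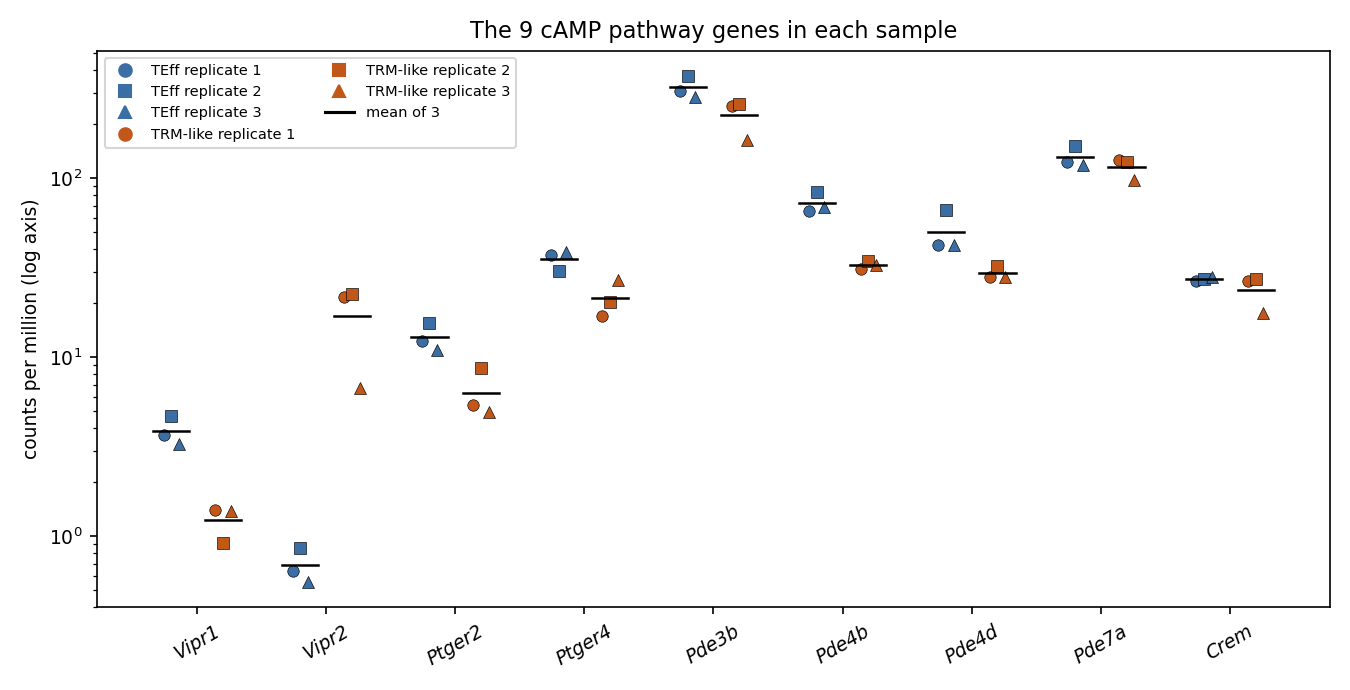
CPM of the 9 genes (log axis) in each of the 6 samples, TEff in blue and TRM-like in orange, with a bar at the mean of 3 and 1 symbol shape per replicate number. Vipr2 lies between 0.552 and 0.860 CPM in TEff and between 6.68 and 22.5 CPM in TRM-like, and 6 of the other genes lie lower in TRM-like without overlap.

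Vipr2 encodes VPAC2, a Gs-coupled receptor for VIP and for its relative PACAP (ENSMUSG00000011171, chr12:116041346-116109883, plus strand). It had 14, 17 and 10 counts in TEff replicates 1, 2 and 3 and 496, 516 and 145 counts in TRM-like replicates 1, 2 and 3. In CPM these were 0.640, 0.860 and 0.552 CPM against 21.6, 22.5 and 6.68 CPM. Every TRM-like sample was above every TEff sample, and TRM-like replicate 3 was well below the other 2 of its group. The mean went from 0.684 ± 0.159 CPM (SD, n = 3) to 16.9 ± 8.90 CPM (SD, n = 3), a log2 fold change of 4.62 with a standard error of 0.50, or 24.5-fold. Leaving out each sample in turn gave 4.35 to 4.99, the highest of these without TRM-like replicate 3, and the threshold was passed in all 6 of these fits. Among the 14822 genes with no fewer than 10 counts in any sample, Vipr2 had the 5th highest log2 fold change. At the rate of the olfactory, vomeronasal and taste receptor genes, a TEff library would hold at most 0.379 counts of Vipr2.

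Vipr1 encodes VPAC1, the other receptor shared by VIP and PACAP (ENSMUSG00000032528, chr9:121471775-121502020, plus strand). Its counts were 80, 93 and 59 in TEff and 32, 21 and 30 in TRM-like, or 3.66, 4.71 and 3.26 CPM against 1.40, 0.917 and 1.38 CPM. The groups did not overlap, and the direction was opposite to that of Vipr2. The mean fell from 3.87 ± 0.748 CPM to 1.23 ± 0.272 CPM (SD, n = 3 each), a log2 fold change of -1.65 with a standard error of 0.27, 3.14-fold lower. Across the fits without each sample it was -1.75 to -1.48, and it passed the threshold in 2 of the 6, not without TEff replicate 1 (-1.68), 2 (-1.49) or 3 (-1.75) or TRM-like replicate 2 (-1.48). At the rate of those receptor genes TRM-like replicates 1 and 2 would hold 3.19 and 3.23 counts of Vipr1, and with such counts taken off in every library, the log2 ratio of the mean levels went from -1.65 to -1.77.

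Per length, the order of the pair differed between the groups. In RPKM, which is CPM divided by the gene length in kilobases, Vipr1 stood at 0.790 ± 0.153 and Vipr2 at 0.202 ± 0.0469 in TEff, and Vipr1 at 0.251 ± 0.0555 and Vipr2 at 5.01 ± 2.63 in TRM-like (SD, n = 3). Vipr2 made up 20.2%, 20.9% and 19.7% of the level per length of the pair in TEff and 95.7%, 97.3% and 87.5% in TRM-like. All 3 TEff shares lay within a narrow band, and TRM-like replicate 3, lowest of its group, was still far above them. The summed level of both receptors was 0.993 ± 0.199 RPKM in TEff and 5.26 ± 2.60 RPKM in TRM-like, where the 3 samples were at 6.68, 6.85 and 2.26 RPKM.

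**Figure D2:**
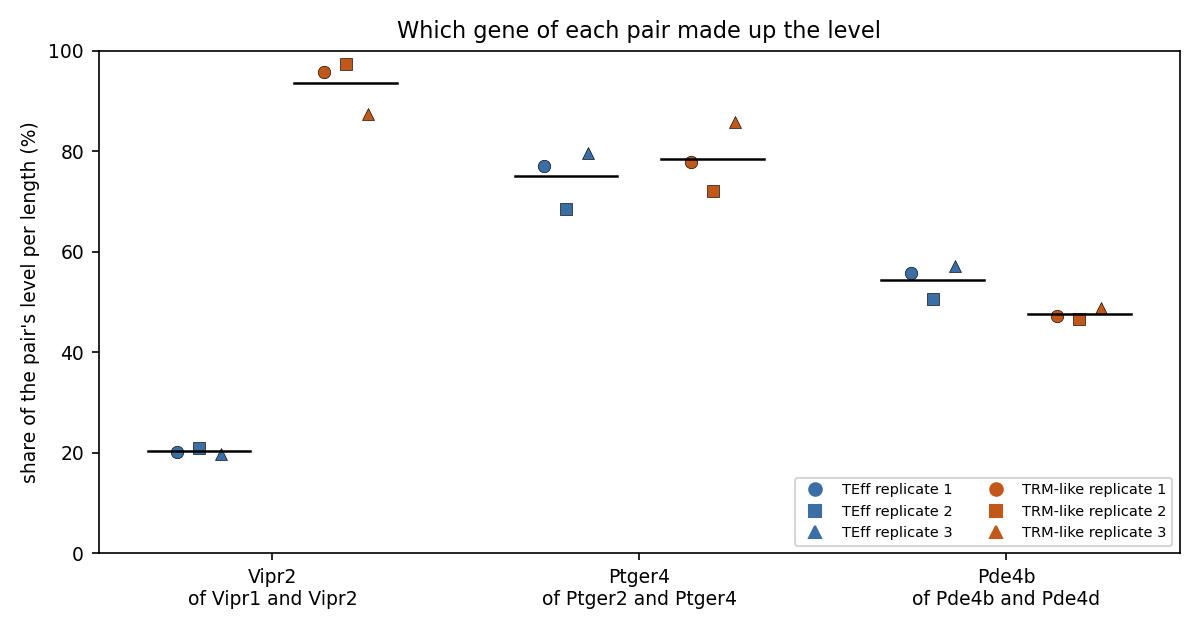
Share of the level per length (percent) that the first named gene of each pair made up in each of the 6 samples, TEff in blue and TRM-like in orange, with a bar at the mean of 3. The Vipr2 share has a mean of 20.3% in TEff and 93.5% in TRM-like, and the Ptger4 shares of the 2 groups overlap.

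Ptger2 and Ptger4 encode EP2 and EP4, the Gs-coupled receptors for prostaglandin E2. Ptger2 (ENSMUSG00000037759, chr14:45225652-45241277, plus strand) was at 12.3, 15.4 and 10.9 CPM in TEff and 5.36, 8.69 and 4.93 CPM in TRM-like. Ptger4 (ENSMUSG00000039942, chr15:5236142-5273673, minus strand) was at 37.3, 30.4 and 38.4 CPM in TEff and 17.0, 20.2 and 26.8 CPM in TRM-like. Both were lower in every TRM-like sample than in any TEff sample, though neither passed the threshold. The log2 fold change was -1.02 with a standard error of 0.25 for Ptger2 and -0.73 with a standard error of 0.19 for Ptger4. Without TRM-like replicate 3 both passed it, at -0.89 and -0.93, and Ptger2 also passed without TRM-like replicate 2, at -1.33. Ptger4 was the larger part of the pair per length in every sample, 68.5% to 79.6% in TEff and 72.0% to 85.7% in TRM-like, and these ranges overlapped. The summed level of the pair was 14.1 ± 0.700 RPKM in TEff and 8.13 ± 1.43 RPKM in TRM-like (SD, n = 3). Ptger4 shares 229 exon bases with Ttc33 and 1015 with Gm15937 on the opposite strand, and Ptger2 shares 509 with Gm17173 and 331 with Gm49364, so reads from these partners cannot be told apart if strand was not used in counting.

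The 4 phosphodiesterase genes differed in how far apart the groups were. Pde4b, whose product hydrolyses cAMP but not cGMP and is known to act near the T cell receptor (ENSMUSG00000028525, chr4:101944740-102465716, plus strand), was at 65.1, 83.1 and 68.6 CPM in TEff. In TRM-like it was at 30.8, 34.6 and 32.9 CPM, a tight group below every TEff sample. Its log2 fold change was -1.14 with a standard error of 0.14, 2.21-fold lower, and in all 6 fits without a sample it passed the threshold, at -1.20 to -1.03. Its exons overlap no other gene in the annotation used.

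Pde4d, of the same cAMP-specific family (ENSMUSG00000021699, chr13:108586482-110092497, plus strand), was at 42.1, 66.3 and 42.0 CPM in TEff and 28.2, 32.4 and 28.0 CPM in TRM-like. The groups were separate, with TEff replicate 2 far above the rest of its group. Its log2 fold change was -0.76 with a standard error of 0.19, which did not pass the threshold, and without TRM-like replicate 3 it was -0.74 and did. Of the level per length of Pde4b and Pde4d together, Pde4b made up 55.7%, 50.5% and 57.1% in TEff and 47.1%, 46.5% and 48.9% in TRM-like.

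Pde3b, a phosphodiesterase that cGMP inhibits (ENSMUSG00000030671, chr7:114013685-114138486, plus strand), was at 308, 371 and 284 CPM in TEff and 254, 259 and 163 CPM in TRM-like. The groups did not overlap, TRM-like replicate 3 was lowest, and the log2 fold change was -0.51 with a standard error of 0.20, or -0.33 without that sample. It passed the threshold in 0 of the 6 fits without a sample. The gene shares 712 exon bases with 4933406I18Rik on the opposite strand.

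Pde7a encodes a cAMP-specific enzyme with high affinity for cAMP (ENSMUSG00000069094, chr3:19277270-19365890, minus strand). It was at 123, 150 and 118 CPM in TEff and 126, 123 and 97.6 CPM in TRM-like, so the groups overlapped. The log2 fold change was -0.18 with a standard error of 0.16, and -0.08 without TRM-like replicate 3. It shares 311 exon bases with Mtfr1 on the opposite strand. As a share of the level per length of the 4 phosphodiesterases, Pde7a was at 23.7%, 23.2% and 23.9% in TEff and 29.4%, 28.1% and 31.3% in TRM-like. Pde4b went the other way, from 10.4% ± 0.562 to 6.79% ± 1.40 (SD, n = 3), and Pde3b kept the largest share, 57.3% ± 1.02 and 56.1% ± 3.96. The 4 genes together were at 85.4 ± 12.6 RPKM in TEff and 60.5 ± 10.8 RPKM in TRM-like.

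Crem encodes CREM, a relative of CREB whose short form ICER is induced by cAMP and represses CRE genes (ENSMUSG00000063889, chr18:3260980-3337748, minus strand). Counts cannot separate that short form from the others. The gene was at 26.5, 27.3 and 28.0 CPM in TEff and 26.6, 27.3 and 17.6 CPM in TRM-like. TEff samples and TRM-like replicates 1 and 2 were level, and TRM-like replicate 3 was below all. The log2 fold change was -0.19 with a standard error of 0.18, and -0.03 without that library. Crem shares 788 exon bases with Gm6225 on the opposite strand.

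**Figure D3:**
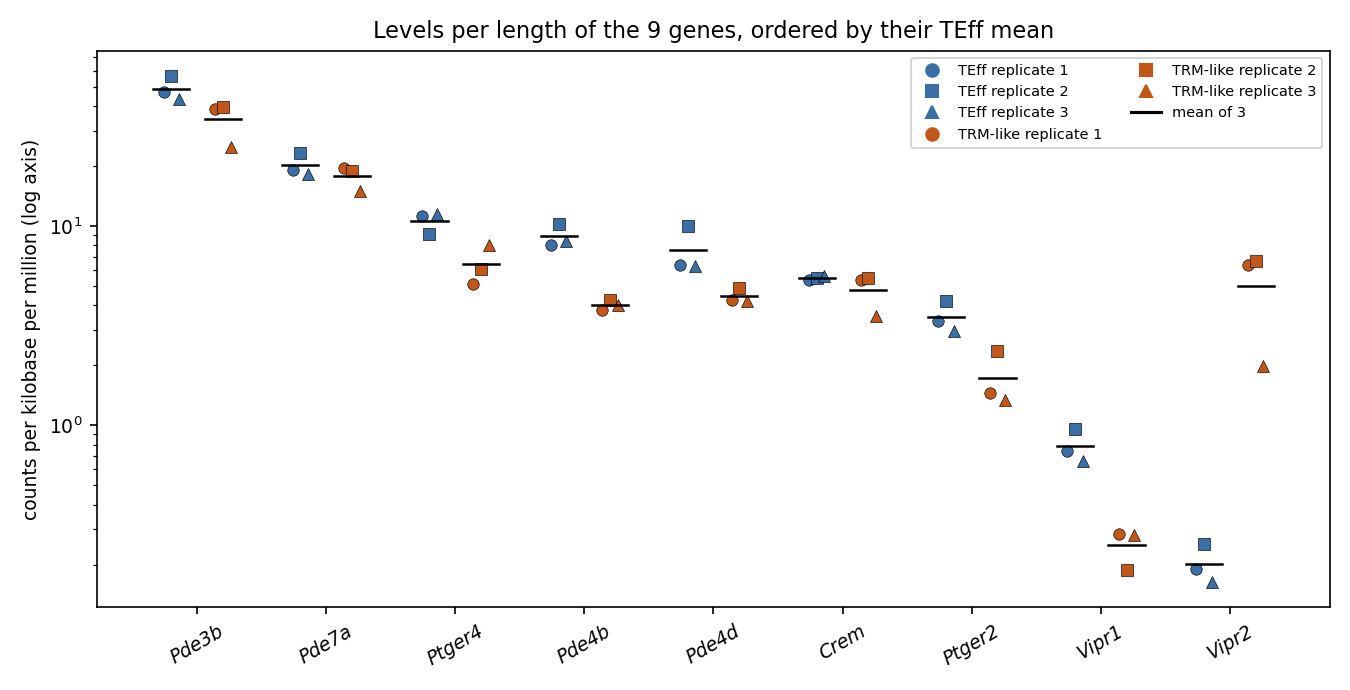
Levels per length of the 9 genes in RPKM (CPM per kilobase of gene length, log axis), ordered by the TEff mean, in each of the 6 samples with a bar at the mean of 3. Pde3b and Pde7a lead in both groups, and Vipr2 moves from last place in TEff to 5.01 RPKM in TRM-like, among the genes in the middle of the order.

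Ordered per length in TEff, Pde3b was first at 48.8 ± 6.84 RPKM (SD, n = 3), then Pde7a at 20.1 ± 2.65 and Ptger4 at 10.6 ± 1.31. Pde4b at 8.86 ± 1.17 and Pde4d at 7.55 ± 2.10 followed, and the samples of Ptger4 and Pde4b, and of Pde4b and Pde4d, overlapped. Crem at 5.49 ± 0.145, Ptger2 at 3.50 ± 0.631, Vipr1 and Vipr2 closed the order with no overlap between neighbours. In TRM-like the order began the same way, with Pde3b at 34.3 ± 8.22 RPKM, Pde7a at 17.8 ± 2.41 and Ptger4 at 6.42 ± 1.49. Vipr2, Crem at 4.80 ± 1.09, Pde4d at 4.44 ± 0.372 and Pde4b at 4.02 ± 0.232 came next, and from Ptger4 to Pde4b each gene overlapped its neighbour. Ptger2 at 1.72 ± 0.559 RPKM and Vipr1 were last and apart from their neighbours.

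As a description over the 6 samples, which share their libraries with every gene compared, the most similar gene was named for each of the 9 by Pearson's r of log2 CPM among 14821 others. The closest was Cux1 for Vipr2 (r = 0.999), Nptn for Pde4b (0.999), Gpr141 for Crem (0.999) and Pecam1 for Pde3b (0.997). For Ptger4 it was Hbs1l (0.996), for Pde4d Jchain (0.996), for Vipr1 Zfp516 (0.995), for Pde7a Arhgap4 (0.994) and for Ptger2 Zbtb26 (0.984). With 6 samples, 90 to 402 genes reached at least 0.95 with each of them. These included 139 genes for Pde7a and 136 for Crem, which overlapped between the groups. Among the 9 themselves, Vipr1 and Pde4b were most alike (0.952), while the highest r of Vipr2 with any of them was -0.233, with Crem.

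The wider list held 107 further genes in 11 groups by role, of which 83 were tested. Of these, 6 were higher and 4 were lower in TRM-like past the threshold, and 73 did not pass. The median log2 fold change of the 83 was -0.03. Over all genes tested, 1.52% were higher and 1.48% were lower. At an unadjusted p below 0.05 in edgeR stood 25 of the 83. The most were in the other Gs-coupled receptors, 7 of 9, and the receptor kinases and arrestins, 5 of 7. The share of all genes at that cut is not given here. The list was drawn up with earlier results known, so nothing is read from these counts. The 10 genes were 4 receptors, 2 arrestins, 2 cyclases, a prostaglandin synthase and a kinase A subunit, and the same 10 passed in limma-voom, while DESeq2 passed 15.

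**Figure D4:**
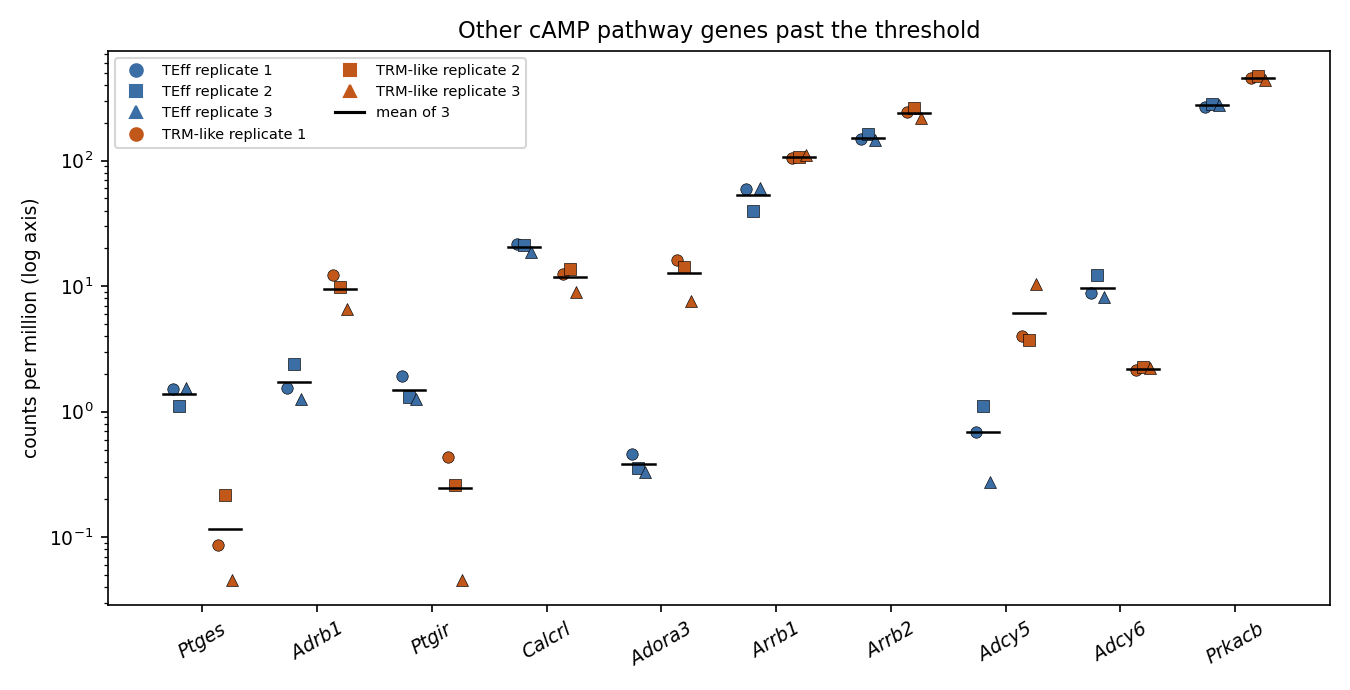
CPM (log axis) of the 10 genes of the wider list past the threshold in each of the 6 samples, TEff in blue and TRM-like in orange, with a bar at the mean of 3. Adrb1, Adora3, Arrb1, Arrb2, Adcy5 and Prkacb lie higher in TRM-like in every sample, and Ptges, Ptgir, Calcrl and Adcy6 lie lower.

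Of 8 genes for ligands and the enzymes that make or degrade them, 4 were tested and 1 fell. Vip had 3 counts in TRM-like replicate 2 and 0 in the other 5 libraries, Adcyap1, the PACAP gene, had 0 counts in every library, and Ptgs2, the inducible cyclooxygenase, had at most 2. Ptges, the inducible microsomal synthase of prostaglandin E2, was at 1.51, 1.11 and 1.55 CPM in TEff and 0.0872, 0.218 and 0.0461 CPM in TRM-like, on 1 to 5 counts a library in the latter. It fell by 3.49 on the log2 scale with a standard error of 0.50 (edgeR quasi-likelihood test, Benjamini-Hochberg adjusted p = 0.0063). The gene passed without any 1 sample, though only just without TEff replicate 1 (edgeR adjusted p = 0.0492) or 3 (0.0475). Ptges3, the most abundant of the list per length and known as a cochaperone of Hsp90, did not pass, with a log2 fold change of -0.20 (edgeR adjusted p = 0.792). It was at 95.7 CPM in TRM-like replicate 3 and 48.0 to 49.3 CPM in the other 2, and without that sample it passed at -0.62 (edgeR adjusted p = 0.00777).

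Of the 12 other Gs-coupled receptors, 9 were tested, 1 rose and 2 fell. The groups did not overlap in 7 of the 9, with TRM-like above in 2 and below in 5, where 20.3% of all genes did not overlap. The median log2 fold change of the 9 was -0.81. Adrb1, the β1-adrenergic receptor, rose from 1.55, 2.38 and 1.27 CPM in TEff to 12.2, 9.83 and 6.64 CPM in TRM-like. The groups were far apart, a log2 fold change of 2.45 with a standard error of 0.31, 5.48-fold (edgeR adjusted p = 0.0037), and the gene passed without any 1 sample. Adrb3, the β3-adrenergic receptor, had 1 count in TRM-like replicate 2 and 0 in the other 5 libraries and was not tested.

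Ptgir, the prostacyclin receptor, fell from 1.92, 1.32 and 1.27 CPM to 0.436, 0.262 and 0.0461 CPM, the last a single count, and the groups did not overlap. Its log2 fold change was -2.56 with a standard error of 0.54 (edgeR adjusted p = 0.0387), and it did not pass without TEff replicate 1, 2 or 3 (0.203, 0.123 and 0.136) or TRM-like replicate 2 (0.127). Calcrl, the receptor that binds calcitonin gene-related peptide or adrenomedullin according to its RAMP partner, fell from 21.7, 21.5 and 18.8 CPM to 12.6, 13.6 and 9.03 CPM. Its log2 fold change was -0.81 with a standard error of 0.18 (edgeR adjusted p = 0.0459), and it passed without TRM-like replicate 3 (0.00238) but not without any of the other 5 samples (0.0734 to 0.236). Gpr65, a proton-sensing receptor, was at 17.2 to 21.1 CPM in TEff and 22.1 to 25.0 CPM in TRM-like, a log2 fold change of 0.35 that did not pass (edgeR adjusted p = 0.290).

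Among 11 receptors of the same ligands coupled to Gi or Gq, 5 were tested and Adora3 rose. Adora3, the A3 adenosine receptor, had 10, 7 and 6 counts in TEff and 370, 324 and 164 in TRM-like, or 0.457, 0.354 and 0.331 CPM against 16.1, 14.2 and 7.56 CPM. Like Vipr2 it was near the floor in TEff and lowest in replicate 3 of TRM-like. The log2 fold change was 5.02 with a standard error of 0.37, 32.4-fold (edgeR adjusted p = 0.000233), and it passed without any 1 sample. Its exons share 154 bases with Tmigd3 on the same strand, which had at most 8 counts.

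Of 7 G protein alpha subunit genes, 6 were tested and 0 passed in edgeR, DESeq2 or limma-voom, with 0 at an unadjusted p below 0.05, and Gnai2, a Gi subunit and the most abundant per length, had a log2 fold change of 0.15 (edgeR adjusted p = 0.663). Of 7 genes for receptor kinases and arrestins, all tested, the 2 β-arrestin genes, whose products uncouple receptors from G proteins, rose. Arrb1 was at 59.1, 39.7 and 60.5 CPM in TEff and 104, 108 and 110 CPM in TRM-like, a log2 fold change of 1.01 with a standard error of 0.17 (edgeR adjusted p = 0.0154). Arrb2 was at 147, 162 and 146 CPM in TEff and 243, 263 and 218 CPM in TRM-like, 0.67 on the log2 scale with a standard error of 0.13 (edgeR adjusted p = 0.0310). Both were separate between the groups in all samples. Arrb1 did not pass without TEff replicate 1 (0.0716) or 3 (0.0572) or TRM-like replicate 2 (0.0561), and Arrb2 passed only without TRM-like replicate 3 (0.0003) among the fits that left out a sample, the others giving 0.0885 to 0.203. Grk2, a kinase that phosphorylates active receptors, was at 387 to 410 CPM in TEff and 295 to 317 CPM in TRM-like and did not pass at -0.40 (edgeR adjusted p = 0.158).

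Of 10 adenylyl cyclase genes, 7 were tested, 1 rose and 1 fell. Adcy6 fell from 8.78, 12.2 and 8.23 CPM in TEff to 2.14, 2.27 and 2.21 CPM in TRM-like, where its samples were nearly identical, a log2 fold change of -2.14 with a standard error of 0.21 (edgeR adjusted p = 0.00127). It passed without any 1 sample. Adcy5, its closest relative and, like it, inhibited by Gi and by calcium, rose from 0.686, 1.11 and 0.276 CPM to 4.01, 3.71 and 10.5 CPM. Its log2 fold change was 3.10 with a standard error of 0.54 (edgeR adjusted p = 0.0175), and it did not pass without TEff replicate 1, 2 or 3 (0.119, 0.0587 and 0.0942). Unlike Vipr2, Adrb1 and Adora3, it was highest in TRM-like replicate 3, and without that sample the log2 fold change was 2.44. Adcy7, by far the most abundant cyclase gene per length at 64.1 RPKM in TEff and 52.6 RPKM in TRM-like, overlapped between the groups and did not pass (-0.28, edgeR adjusted p = 0.501).

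**Figure D5:**
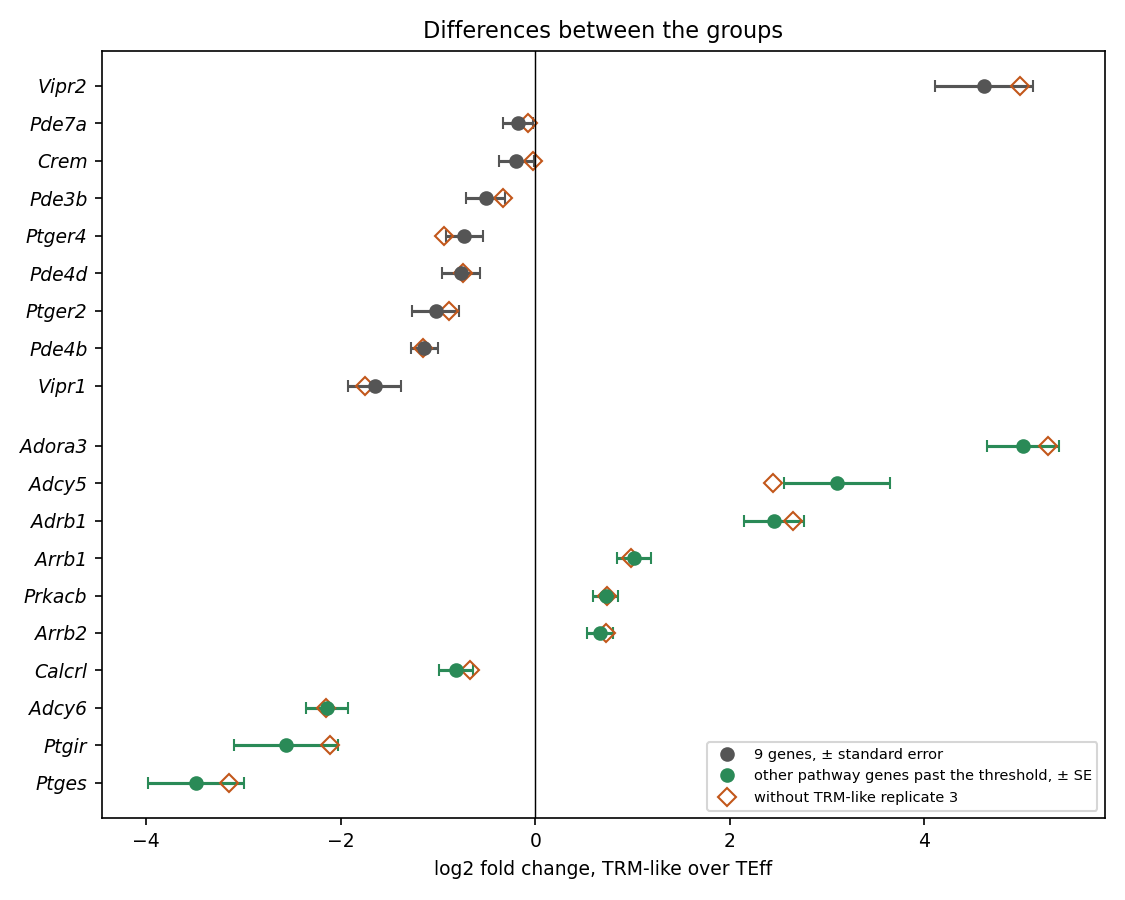
Log2 fold change of TRM-like over TEff for the 9 genes (grey) and the 10 genes of the wider list past the threshold (green), with bars of 1 standard error, and the value without TRM-like replicate 3 (open diamonds). Vipr2, at 4.62, and Adora3, at 5.02, are the highest of each block, and Vipr1, at -1.65, and Ptges, at -3.49, are the lowest.

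Downstream of cAMP, 1 gene passed. Among 11 genes of protein kinase A, Epac and their inhibitors, 9 were tested and Prkacb, a catalytic subunit of kinase A, rose from 266, 283 and 275 CPM to 453, 472 and 436 CPM. Its samples were tight within each group, a log2 fold change of 0.72 with a standard error of 0.13 (edgeR adjusted p = 0.0167). It passed without TRM-like replicate 3 (0.000189) and not without any of the other 5 samples (0.0700 to 0.154). Prkar1a, a regulatory subunit, overlapped between the groups at 0.12 on the log2 scale (edgeR adjusted p = 0.763).

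Of 12 other cAMP phosphodiesterase genes, 8 were tested and 0 passed in edgeR, with 2 at an unadjusted p below 0.05, 1 past the threshold in DESeq2 (Pde4a) and 0 in limma-voom. Pde1b, the most abundant per length, was at 11.2 to 13.1 CPM in TEff and 7.88 to 9.85 CPM in TRM-like and had a log2 fold change of -0.45 (edgeR adjusted p = 0.221). The 9 genes for A-kinase anchoring proteins, which hold kinase A at its sites of action, were all tested, with 0 past the threshold in edgeR, DESeq2 or limma-voom and 0 at an unadjusted p below 0.05. Akap13, the most abundant per length, was at -0.24 (edgeR adjusted p = 0.607). All 9 CREB family and coactivator genes were tested and 0 passed in edgeR, with 2 at an unadjusted p below 0.05, 1 past the threshold in DESeq2 (Crtc3) and 0 in limma-voom. Creb1 itself was at 130 to 143 CPM in TEff and 98.7 to 112 CPM in TRM-like, separate but not past the threshold at -0.40 (edgeR adjusted p = 0.159). Of 11 genes known to respond to cAMP through CREs, 10 were tested and 0 passed in edgeR, with 2 at an unadjusted p below 0.05, 1 past the threshold in DESeq2 (Sik1) and 0 in limma-voom. Junb, the most abundant of them per length, was at 76.5 to 82.3 CPM in TEff and 59.1 to 109 CPM in TRM-like, where replicate 3 was lowest (log2 fold change 0.11, edgeR adjusted p = 0.864), and the direction turned without TRM-like replicate 2 (-0.13).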

How the data were processed

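RNA from the 6 samples was made into TruSeq Stranded Total RNA libraries and sequenced. The authors trimmed reads with Cutadapt 4.8, mapped and counted them with Rsubread on GRCm39, and deposited raw read counts per gene with gene lengths. The strand setting and the handling of reads with several matches are not given in the sources used here, nor is the batch that the authors removed for plots, so none was removed. Groups follow the sample titles and replicate numbers.

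Gene symbols and positions were read from a newer GENCODE release on GRCm39, which held 56620 of the 57126 genes. Genes counted in 3 samples or more (minimum 1 count) were tested with edgeR 4.0.16 in R 4.3.3 (glmQLFit and glmQLFTest, TMM, Benjamini-Hochberg, adjusted p below 0.05 and absolute log2 fold change above 0.58). CPM used TMM library sizes, and RPKM also the deposited lengths. The standard error is the log2 fold change divided by the square root of F. Errors of means are SD over 3 samples. Scripts were tested on simulated data with 200 genes changed 4-fold. There edgeR recovered 86.5% of these genes, and 8.95% of its calls were false, more than the adjusted p threshold of 0.05 allows for. Of the DESeq2 calls, 13.2% were false.

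The 9 genes and the lists were chosen with earlier results of these data known. Named were the 9 genes, every further pathway gene past the threshold, Adrb1 and Adrb3, the most abundant gene of each list per length over all samples, and the most similar gene of each of the 9. Alternatives were DESeq2 1.42.0, limma-voom (limma 3.58.1), DESeq2 size factors, library totals, filterByExpr, a minimum of 10 counts in each sample, no filter, a replicate block, each sample left out, and, chosen after seeing the data, the block on genes with that minimum. Promoters came from a RefSeq table and were placed on GRCm39 by exact match. Protein sequences and promoters of the other 3 of the 9 genes were not used here. Not every result is reported here.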

Additional observations from a re-analysis of the deposited data

How the results depend on the processing

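None of 144 alternative values of the 9 genes' log2 fold changes reversed, and of 307 for the further named genes 1 did, Junb (0.11) at -0.13 without TRM-like replicate 2, with 0.30 without TRM-like replicate 3. DESeq2 put 1256 genes past the threshold in place of 786, no filter 1868 and the replicate block 2035, and the fits without a sample 263 to 3579, the last without TRM-like replicate 3. Of the 9 genes, 6 in place of 3 passed under DESeq2, no filter, the replicate block, the block on genes with a minimum of 10 counts in each sample and without TRM-like replicate 3, each time adding Ptger2, Ptger4 and Pde4d, and 2 to 6 passed across the fits without a sample. Of the wider list, 2 to 12 genes were higher without a sample in place of 6, and 2 to 9 were lower in place of 4, both highest without TRM-like replicate 3, while a minimum of 10 counts in each sample gave 1 lower, no filter 7 and the replicate block 9. With the minimum of 10 counts, Ptges, Ptgir, Adora3 and Adcy5 were filtered out and Calcrl did not pass (edgeR adjusted p = 0.0627). That left 4 higher genes of the wider list. The cause of the other changes was not tested. Same-numbered samples deviated together with r = -0.292, 0.309 and 0.389 over 14822 genes, and 3 of 6 samples deviated most like the sample of their own number, so the numbers were not taken as pairs. The median log2 fold change of all genes moved by 0.36 with no filter. Low counts limit some fold changes: in TEff 10 to 17 for Vipr2, 6 to 10 for Adora3 and 5 to 22 for Adcy5. In TRM-like, 1 to 10 counts limit those of Ptges and Ptgir, and 3 samples a group limit the rest.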
